A study of Mus musculus with 13 samples.

Results

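The SMAD transducers and a small set of genes that SMAD proteins bind and regulate were followed in mouse heart: Smad1, Smad2, Smad3, Smad4, Smad6, Smad7, Id1, Id3 and Hey1. They were chosen by gene symbol, current or older, with all probes of each gene taken. Of these 9 genes, 8 had a probe with a name in the platform annotation used here, and Smad4 had none. The 8 genes had 13 of the 45281 probes on the array. Of these, 10 probes of 6 genes were detected on enough arrays to be tested, among 18693 tested probes in all. Hearts came from male C57BL/6 mice aged 8 to 10 weeks, all of them injected into the abdomen. One group of 3 mice received sAcvR2B-Fc, a soluble activin type 2B receptor that captures activins, myostatin and related ligands, 48 hours ahead of doxorubicin (called pre-treated hearts here). A group of 5 mice received doxorubicin, an anthracycline cancer drug with cardiac toxicity, alone (doxorubicin hearts). A further 5 mice received PBS (PBS hearts). Mice were killed 20 hours after the last injection, and each heart gave 1 single-colour Illumina expression array. The sources at hand give no doses. None of the 13 samples is from a mouse given sAcvR2B-Fc without doxorubicin, so its effect apart from doxorubicin cannot be read here.

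Ligands of the TGF-beta family bind paired receptor kinases, which phosphorylate receptor-regulated SMADs. SMAD2 and SMAD3 carry the signal of activins, myostatin and TGF-beta, and SMAD1 with its close relatives carries that of bone morphogenetic proteins (BMPs). The phosphorylated proteins join SMAD4, enter the nucleus and bind DNA, and SMAD6 and SMAD7 are inhibitory members that signalling induces. Id1 and Id3, which encode inhibitors of helix-loop-helix transcription factors, are well known direct targets of the BMP branch in vascular endothelium. Hey1, a transcriptional repressor of the NOTCH pathway, is induced by BMP signals there too. The arrays measured RNA, so they carry no reading of SMAD phosphorylation.

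The deposited tables differed on which array belonged to which mouse. Sample names of the non-normalized table and of the series matrix pointed to the same array for 5 of the 13 samples. They pointed to different arrays for 8 samples, and for 6 of these the array stood in another group. The values below follow the non-normalized table. Other genes and cell type markers are given under its names alone, and no probe of any gene was called under the series matrix names. For tested member probes other than Smad1 ILMN_1234354, differences of pre-treated hearts stand beside those under the series matrix names. They also stand beside those over the 7 arrays with 1 and the same group under both namings. Of these 7 arrays only 1 is a pre-treated heart. With that lone array, the pre-treated group was assumed to vary like the others. The labels and file headers leave unsettled which naming is right.

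Raw signal had a median of 101.5 to 136.3 per array, and 15989 to 17939 probes per array were detected, at a detection p-value under 0.05. All 9 cardiomyocyte markers tested, such as Myh6 and Actn2, were detected on every array. Values are normalized signals on the log2 scale, and a difference is the first group's mean minus the second's, with its SE. A probe was called at an adjusted p under 0.05 (limma, adjusted over all 18693 tested probes). In whole-heart RNA, fewer cells of a type and less RNA per cell cannot be told apart.

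In the hearts given sAcvR2B-Fc before doxorubicin, Smad1 and Hey1 signals averaged below, and Id1 and Id3 signals above, those of both other groups. One probe passed the test: Smad1 probe ILMN_1240219 fell in pre-treated hearts against PBS hearts, by 0.59 on the log2 scale. Doxorubicin alone left all 10 member probes short of the threshold. The 3 comparisons share arrays (each group enters 2 of them), so their values are not independent of each other.

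**Figure D1:**
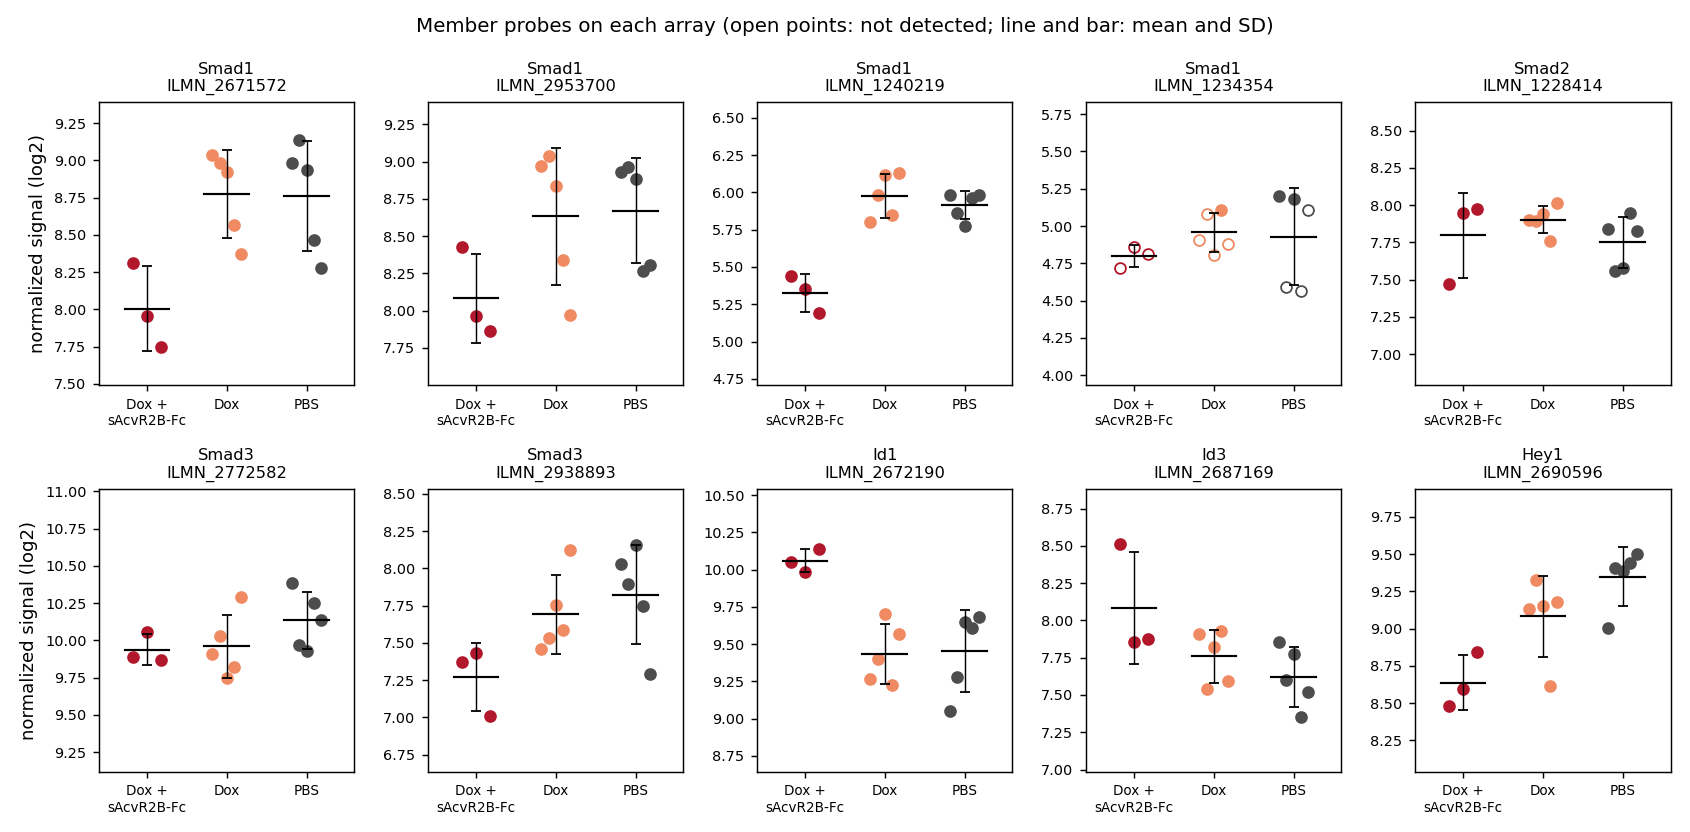
Normalized log2 signal (vertical axis) of each tested member probe on each of the 13 arrays, with pre-treated hearts (Dox + sAcvR2B-Fc, n = 3) on the left, doxorubicin hearts (Dox, n = 5) in the middle and PBS hearts (n = 5) on the right. Lines and bars are the mean and SD, open points are arrays where the probe was not detected, and the vertical axis of each panel has its own range. The 3 pre-treated hearts lay above all others for Id1 (lowest 9.98) and below all others for Smad1 probe ILMN_1240219 (highest 5.44).

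Smad1 encodes the receptor-regulated SMAD of the BMP branch. It had 5 probes, of which 4 were tested. Probe ILMN_1240219, which the platform ties to a separate cDNA record of the gene, gave 5.44, 5.35 and 5.19 in pre-treated hearts, 5.80, 5.98, 6.12, 5.85 and 6.13 in doxorubicin hearts, and 5.99, 5.86, 5.78, 5.96 and 5.99 in PBS hearts. Each pre-treated heart was below every heart of both other groups. The difference was -0.59 ± 0.11 against PBS hearts (limma, adjusted p = 0.0318), a 1.5-fold lower signal. Without background correction it was -0.20 (adjusted p = 0.0761) and not called. The probe was close to background: raw signals were 122.3 to 151.0 in pre-treated hearts, 126.9 to 193.1 in doxorubicin hearts and 136.2 to 187.2 in PBS hearts, with detection p-values of 0.01603 to 0.04808 in pre-treated hearts. Against doxorubicin hearts it was -0.65 ± 0.11 (limma, adjusted p = 0.065), which missed the threshold. Between doxorubicin and PBS hearts it was 0.06 ± 0.10. The call against PBS did not hold without any 1 of the 8 arrays of those groups. Its adjusted p was then 0.0514 (without PBS replicate 5) to 0.128 (without pre-treated replicate 2), with differences of -0.64 to -0.52. The difference was -0.03 against both PBS and doxorubicin hearts under the series matrix names. Over the arrays placed alike by both tables it was -0.50 against PBS hearts and -0.53 against doxorubicin hearts.

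The probes ILMN_2671572 and ILMN_2953700 are 2 of the 4 that the platform ties to the same Smad1 transcript record, and moved together from array to array (r = 0.94 over 13 arrays). Probe ILMN_2671572 gave 8.31, 7.96 and 7.75 in pre-treated hearts, 9.04, 8.98, 8.92, 8.56 and 8.37 in doxorubicin hearts, and 8.98, 9.14, 8.93, 8.47 and 8.28 in PBS hearts. All 3 pre-treated hearts lay below the doxorubicin hearts, while the lowest PBS heart was just under the highest pre-treated one. The difference was -0.77 ± 0.22 against doxorubicin hearts and -0.75 ± 0.22 against PBS hearts, with adjusted p of 0.335 and 0.110 in limma. Probe ILMN_2953700 ranged from 7.87 to 8.42 in pre-treated hearts, from 7.97 to 9.04 in doxorubicin hearts and from 8.26 to 8.96 in PBS hearts, which overlapped. Its differences were -0.55 ± 0.25 against doxorubicin hearts (adjusted p = 0.461) and -0.58 ± 0.25 against PBS hearts (adjusted p = 0.267). Under the series matrix names, ILMN_2671572 differed by -0.09 from doxorubicin hearts and by -0.04 from PBS hearts. ILMN_2953700 then differed by -0.17 from doxorubicin hearts and by -0.07 from PBS hearts. Over the arrays placed alike, ILMN_2671572 differed by -0.67 from doxorubicin hearts and by -0.49 from PBS hearts, and ILMN_2953700 by -0.52 and -0.31 in that order.

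The other 2 probes of that record were near background. ILMN_1234354, which was tested, was detected on 3 arrays, none of them of a pre-treated heart, and its differences stayed between -0.16 and 0.03. ILMN_2439293 was detected on no array. The probe that carries the call did not follow ILMN_2671572 within groups: once group means were taken out, their correlation over the 13 arrays was -0.17, against 0.95 between ILMN_2671572 and ILMN_2953700.

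The promoter of Smad1, shown because it belongs to the member with the called probe, is on mouse chromosome 8 (GRCm38.p6, minus strand, chr8:79399379-79399678). As for the promoters that follow, RefSeq gives 250 bases before the gene's start and 50 after it, and capitals mark a motif. Both strands were searched for the palindromic SMAD binding element GTCTAGAC, the SMAD box CAGAC, the GC-rich element GGCGCC and the related letters GGAGCC. No capitals appear in it, so none of these letters are in that window.
Smad1: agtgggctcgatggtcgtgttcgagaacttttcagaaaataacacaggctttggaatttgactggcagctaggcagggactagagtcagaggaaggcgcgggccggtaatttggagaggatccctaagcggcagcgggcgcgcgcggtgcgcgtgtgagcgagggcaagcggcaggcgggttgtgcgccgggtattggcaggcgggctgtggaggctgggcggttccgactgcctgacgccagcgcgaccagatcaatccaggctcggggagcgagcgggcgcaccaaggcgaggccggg

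Smad2 and Smad3 encode the receptor-regulated SMADs of the activin, myostatin and TGF-beta branch, of which sAcvR2B-Fc captures activins and myostatin. Smad2 gave 7.47, 7.95 and 7.97 in pre-treated hearts, 7.90, 7.89, 7.94, 7.76 and 8.02 in doxorubicin hearts, and 7.84, 7.56, 7.58, 7.95 and 7.83 in PBS hearts. The groups overlapped, and the spread of the pre-treated group came from 1 low heart. The 95% interval of the Smad2 difference ran from -0.40 to 0.19 against doxorubicin hearts and from -0.25 to 0.34 against PBS hearts. Doxorubicin alone differed from PBS by 0.15 ± 0.12 (adjusted p = 0.690). Under the series matrix names the pre-treated hearts differed by -0.24 from doxorubicin hearts and by -0.10 from PBS hearts. These Smad2 differences over the arrays placed alike were -0.44 and -0.27, so the direction against PBS hearts (0.05 ± 0.14 over all arrays) turned under both settings.

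Smad3 had 2 tested probes. ILMN_2772582, the brighter, gave 9.89, 10.06 and 9.87 in pre-treated hearts, 9.91, 10.03, 9.75, 9.82 and 10.29 in doxorubicin hearts, and 10.39, 9.97, 9.93, 10.25 and 10.14 in PBS hearts. These overlapped throughout, and the differences were -0.02 ± 0.14 against doxorubicin hearts and -0.20 ± 0.14 against PBS hearts. Under the series matrix names they were 0.08 and -0.04, and over the arrays placed alike -0.00 and -0.27. ILMN_2938893 gave 7.37, 7.43 and 7.01 in pre-treated hearts, 7.46, 7.54, 7.75, 7.59 and 8.12 in doxorubicin hearts, and 8.03, 7.90, 8.16, 7.75 and 7.29 in PBS hearts. The pre-treated hearts lay below the doxorubicin hearts by a narrow gap, and overlapped PBS hearts through 1 low PBS heart. The difference was -0.42 ± 0.20 against doxorubicin hearts (adjusted p = 0.461) and -0.55 ± 0.20 against PBS hearts (adjusted p = 0.176). Its direction turned under the series matrix names, to 0.38 against doxorubicin hearts and 0.24 against PBS hearts. Over the arrays placed alike it was -0.21 against doxorubicin hearts and -0.36 against PBS hearts. The 2 Smad3 probes correlated at r = 0.40 over the 13 arrays, so they disagree on the gene.

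Smad6 and Smad7 encode the inhibitory SMADs, and neither passed the detection filter. The Smad6 probe was detected on 2 arrays, doxorubicin replicate 4 and PBS replicate 5. Its raw signal was 114.7 to 130.2 in pre-treated hearts, 107.0 to 150.0 in doxorubicin hearts and 115.2 to 144.3 in PBS hearts. Smad7 was detected on no array, with raw signals of 95.1 to 113.8 in pre-treated hearts, 94.4 to 123.1 in doxorubicin hearts and 93.6 to 113.5 in PBS hearts. Both stayed near background on these arrays, so a difference in either was not detectable here.

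The Smad6 promoter (GRCm38.p6, chromosome 9, minus strand, chr9:64022010-64022309) is shown as the one member promoter at hand that holds the palindromic element, at bases 247 to 254 of the window, where the gene's start falls. It also holds GGAGCC at bases 149 to 154 and 233 to 238. GTCTAGAC was present in 0.213% of the 32851 RefSeq mouse promoters of the same length, and GGAGCC in 30.8%.
Smad6: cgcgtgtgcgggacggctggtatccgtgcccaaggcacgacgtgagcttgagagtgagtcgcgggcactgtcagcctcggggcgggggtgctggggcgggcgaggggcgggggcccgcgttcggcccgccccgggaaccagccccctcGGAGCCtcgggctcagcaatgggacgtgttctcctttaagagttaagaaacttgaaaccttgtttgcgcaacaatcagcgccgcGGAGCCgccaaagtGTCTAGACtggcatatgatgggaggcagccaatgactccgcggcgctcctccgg

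Id1 encodes an inhibitor of helix-loop-helix factors and is among the genes that respond first to BMP signals. It gave 10.05, 9.98 and 10.14 in pre-treated hearts, 9.27, 9.40, 9.70, 9.23 and 9.57 in doxorubicin hearts, and 9.05, 9.28, 9.65, 9.61 and 9.68 in PBS hearts. All 3 pre-treated hearts were above all 10 others, and lay close together. The difference was 0.63 ± 0.16 against doxorubicin hearts, with an interval of 0.29 to 0.96, and 0.60 ± 0.16 against PBS hearts, with an interval of 0.27 to 0.94. Neither passed the test (limma, adjusted p = 0.267 and 0.0837). Doxorubicin hearts differed from PBS hearts by -0.02 ± 0.14. The Id1 difference under the series matrix names was 0.13 against doxorubicin hearts and 0.31 against PBS hearts. Over the arrays placed alike it was 0.60 against doxorubicin hearts and 0.72 against PBS hearts.

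Id3, the close relative of Id1, gave 8.52, 7.86 and 7.88 in pre-treated hearts, 7.91, 7.54, 7.82, 7.93 and 7.59 in doxorubicin hearts, and 7.86, 7.60, 7.78, 7.35 and 7.52 in PBS hearts. One pre-treated heart was far above the other 2, which lay within the doxorubicin range and just above the highest PBS heart, equal to it at 2 decimals for the lower one. The difference was 0.46 ± 0.17 against PBS hearts (limma, adjusted p = 0.190) and 0.32 ± 0.17 against doxorubicin hearts (adjusted p = 0.494). Without pre-treated replicate 1 the difference from PBS hearts was 0.24, and from doxorubicin hearts 0.11. The Id3 difference under the series matrix names was 0.21 against PBS hearts and 0.26 against doxorubicin hearts. Over the arrays placed alike it was 0.85 and 0.76 in the same order, with that 1 high heart as the pre-treated array.

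The Id3 promoter (GRCm38.p6, chromosome 4, plus strand, chr4:136143572-136143871) is shown because it holds the SMAD box on both strands. The box lies at bases 84 to 88 of the window and, on the opposite strand, at bases 183 to 187. The reverse complement of GGAGCC lies at bases 64 to 69. CAGAC or its reverse was in 49.6% of the 32851 promoters, so its presence is common. The remaining promoter at hand, that of Smad3, held none of the motifs. GC content was 65% for Smad1, 67.7% for Smad3, 66.3% for Smad6 and 60% for Id3, against a median of 52.7% over all promoters.
Id3: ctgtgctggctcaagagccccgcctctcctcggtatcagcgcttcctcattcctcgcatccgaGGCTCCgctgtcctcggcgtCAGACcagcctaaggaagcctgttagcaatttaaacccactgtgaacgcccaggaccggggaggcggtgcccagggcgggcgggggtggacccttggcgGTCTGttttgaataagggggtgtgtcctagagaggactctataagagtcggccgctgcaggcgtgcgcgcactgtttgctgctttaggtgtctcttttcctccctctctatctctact

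Hey1 encodes a repressor that NOTCH induces and that BMP signals can raise in endothelium. It gave 8.48, 8.60 and 8.84 in pre-treated hearts, 9.13, 9.33, 9.15, 8.62 and 9.18 in doxorubicin hearts, and 9.00, 9.41, 9.38, 9.44 and 9.50 in PBS hearts. The pre-treated hearts lay below all PBS hearts, and doxorubicin replicate 4 lay among the pre-treated ones. The difference was -0.71 ± 0.16 against PBS hearts, with an interval of -1.06 to -0.36 (limma, adjusted p = 0.0606). It was -0.44 ± 0.16 against doxorubicin hearts (adjusted p = 0.404). Doxorubicin hearts differed from PBS hearts by -0.27 ± 0.14 (adjusted p = 0.519), the largest difference of any member in that comparison. The difference from PBS passed the threshold in 7 of 25 other settings. Among these were the fits without doxorubicin replicate 2 (adjusted p = 0.0410) and without doxorubicin replicate 4 (adjusted p = 0.0447), and the lowest adjusted p of all 25 was 0.0324. Under the series matrix names the Hey1 difference from PBS hearts was -0.01. It was -0.83 over the arrays placed alike. Against doxorubicin hearts these values were -0.16 and -0.73.

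**Figure D2:**
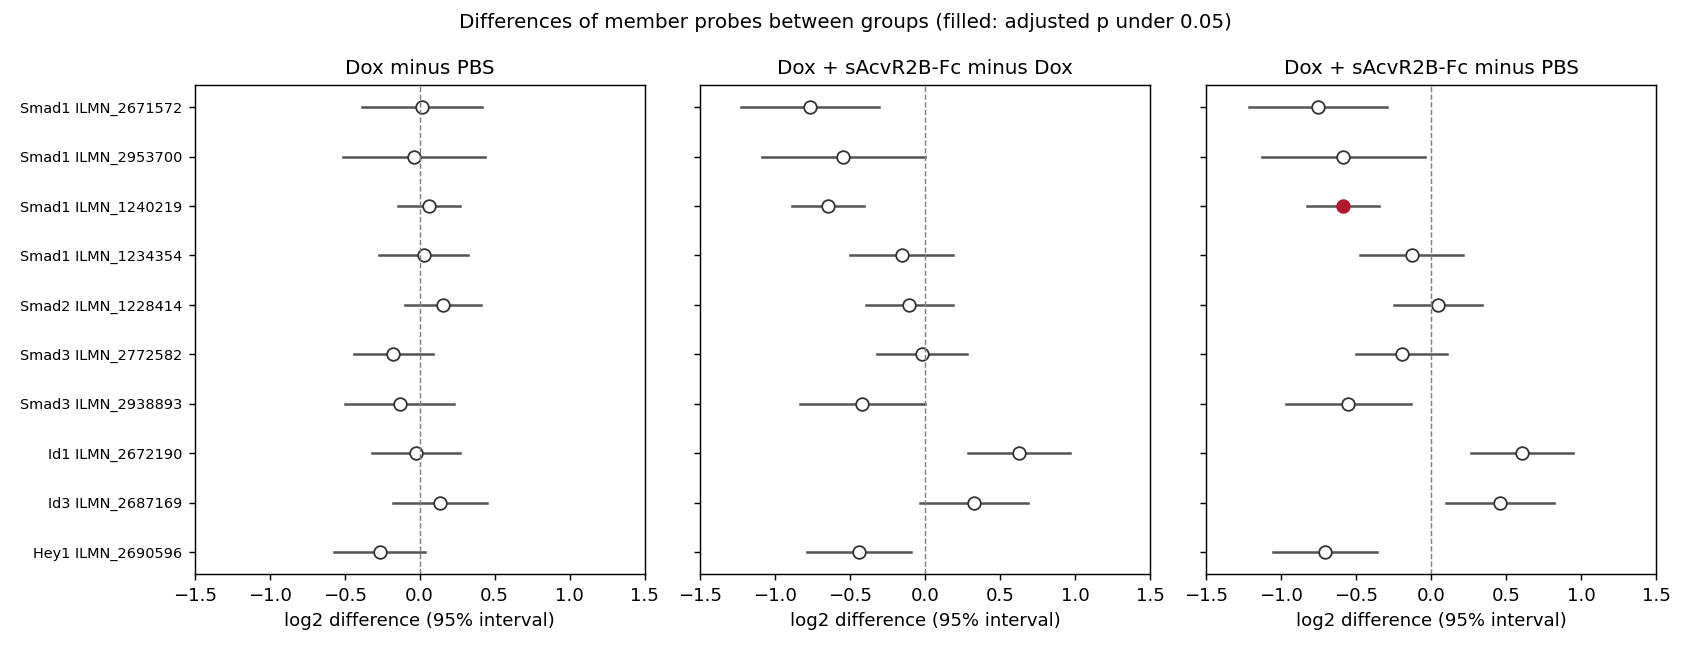
Log2 difference (horizontal axis) with its 95% interval for each tested member probe (rows), in the comparisons doxorubicin minus PBS, pre-treated minus doxorubicin and pre-treated minus PBS. Filled points passed an adjusted p under 0.05. The intervals for doxorubicin minus PBS all include 0, and Smad1 ILMN_1240219 is the filled point.

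Set against all probes, doxorubicin alone called 34 of 18693 tested probes (0.182%) and 0 of the 10 member probes (limma). At an unadjusted p under 0.05, it had 0 of 10 member probes beside 11% of all probes. No member probe separated doxorubicin from PBS hearts without overlap, as 2.55% of all probes did. The smallest adjusted p of a member was 0.519. Leaving out 1 array at a time gave 2 calls (without doxorubicin replicate 1) to 387 (without doxorubicin replicate 2), with no member among them.

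Pre-treated against doxorubicin hearts called 12 probes of all (0.0642%) and 0 member probes (limma). At an unadjusted p under 0.05 there were 6 of 10, 5 lower and 1 higher, beside 10.8% of all probes (4.99% lower and 5.82% higher). The groups did not overlap for 4 of 10 member probes, 3 lower and 1 higher, beside 7.08% of all probes (2.57% lower and 4.51% higher). The median difference was -0.29 over the member probes and 0.02 over all. Several of these probes read the same gene: 3 of the 5 lower ones belong to Smad1.

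Pre-treated against PBS hearts called 126 probes (0.674%), of which 72 were higher and 54 lower, and 1 member probe, lower, as 0.289% of all probes were. Scaled to a common median in place of quantiles, the split was 40 higher and 48 lower. Leaving out 1 array gave 14 calls (without pre-treated replicate 2) to 353 (without doxorubicin replicate 2). At an unadjusted p under 0.05 there were 7 of 10 member probes, 5 lower and 2 higher, beside 16.4% of all probes (6.89% lower and 9.54% higher). The groups did not overlap for 4 of 10, 2 lower and 2 higher (Id3 by a gap lost in rounding), beside 12.6% of all probes (5.03% lower and 7.57% higher). Under the series matrix names 0 probes of any gene were called in any of the 3 comparisons. At an unadjusted p under 0.05 there were then 277 of 18693 tested probes for doxorubicin against PBS, beside 2052 under the non-normalized names. For pre-treated against doxorubicin there were 568 beside 2021, and for pre-treated against PBS 622 beside 3071.

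**Figure D3:**
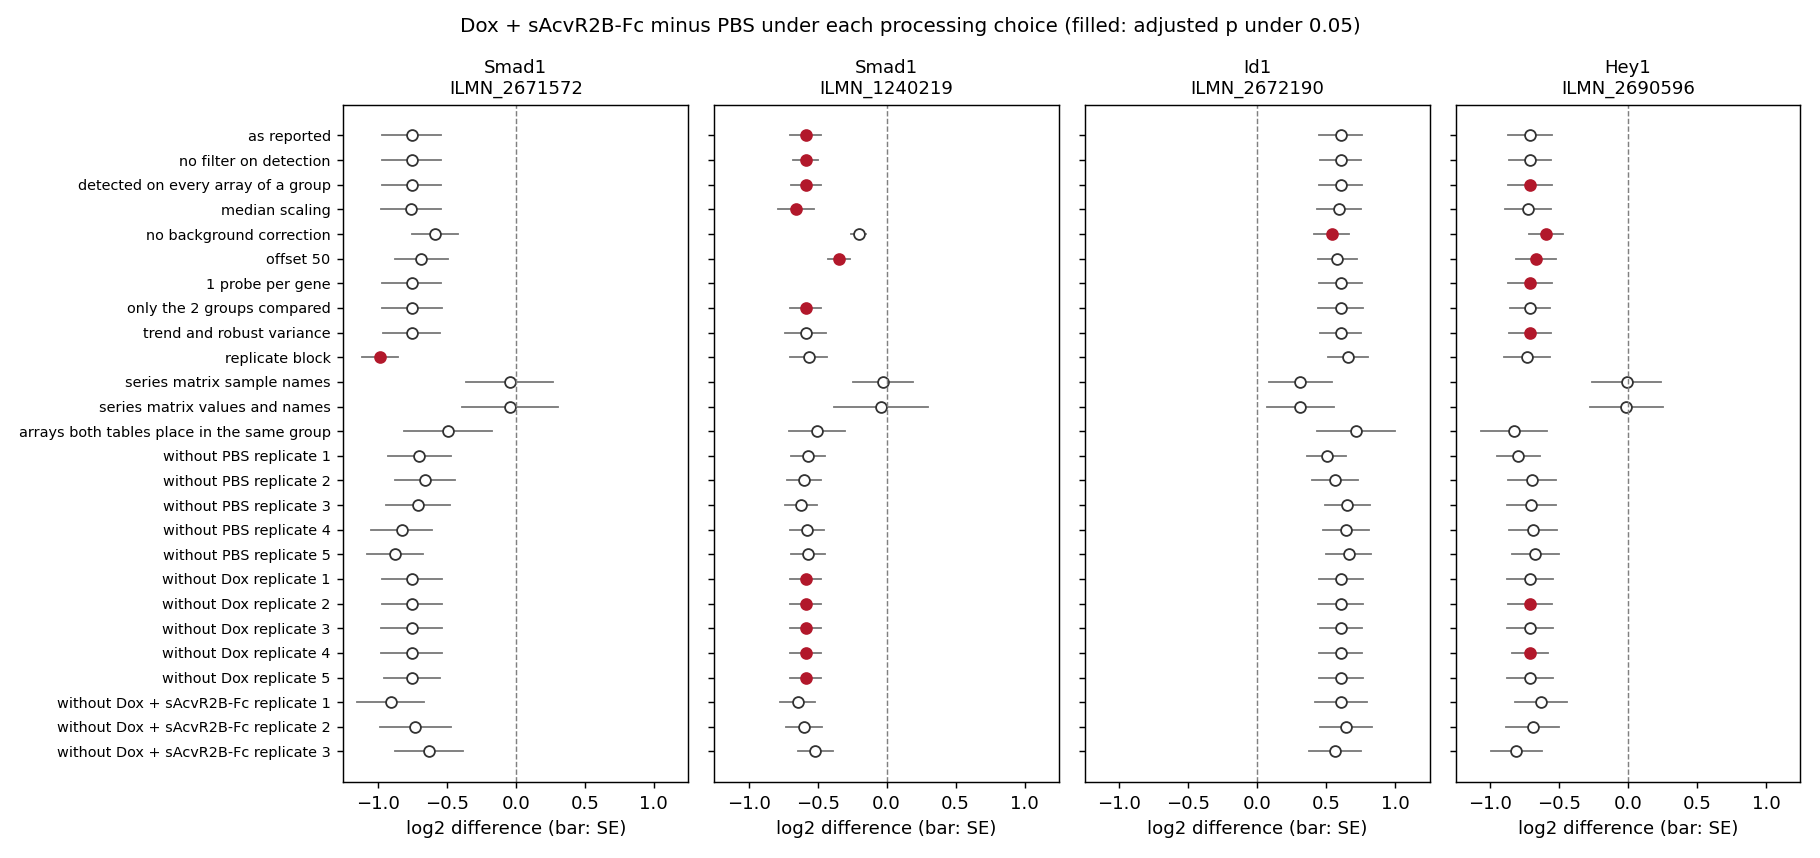
Log2 difference of pre-treated minus PBS hearts (horizontal axis, bar: SE) for 2 Smad1 probes, Id1 and Hey1 under each processing choice and with each array left out in turn (rows). Filled points had an adjusted p under 0.05. All 4 probes kept their direction over these rows, but under the series matrix names the differences of ILMN_2671572, ILMN_1240219 and Hey1 were -0.04, -0.03 and -0.01.

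The other genes of the pathway were read from lists by role, with 1 probe per gene. Receptor-regulated SMADs and their partners had 10 tested genes of 12, and none was called in any comparison. Hgs, an endosomal protein that helps present SMADs to receptors, averaged 9.34 ± 0.16 in pre-treated hearts, 9.09 ± 0.17 in doxorubicin hearts and 8.83 ± 0.20 in PBS hearts (SD, n = 3, 5 and 5). Its difference from PBS in pre-treated hearts was 0.50 ± 0.14 (adjusted p = 0.0982). Of the co-repressors and negative regulators, 13 of 18 were tested and none was called. Pmepa1, a TGF-beta-induced inhibitor of SMAD2 and SMAD3 activation, averaged 6.47 ± 0.06 in pre-treated hearts, 7.03 ± 0.37 in doxorubicin hearts and 7.14 ± 0.14 in PBS hearts. Rnf111, an enzyme that degrades SMAD inhibitors, differed by 0.60 ± 0.19 between pre-treated and doxorubicin hearts (adjusted p = 0.356), where Pmepa1 differed by -0.56 ± 0.18 (adjusted p = 0.359) and the co-repressor Ski by 0.63 ± 0.32 (adjusted p = 0.489). The list's median difference was 0.06 against doxorubicin hearts and -0.04 against PBS hearts. It includes Rnf111, which acts against SMAD inhibitors, so the list mixes roles. Skil, which encodes the SMAD co-repressor SnoN, differed from PBS by -0.34 ± 0.12 in pre-treated hearts (adjusted p = 0.176).

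Among BMP target genes other than the members, 11 of 18 were tested and none was called in any comparison. Their median difference was 0.13 for pre-treated against doxorubicin hearts and 0.17 for pre-treated against PBS hearts, with 8 and 7 of 11 above 0. Eng, the endothelial co-receptor endoglin, averaged 9.89 ± 0.06 in pre-treated hearts, 9.53 ± 0.14 in doxorubicin hearts and 9.40 ± 0.12 in PBS hearts. Its difference of 0.49 ± 0.11 from PBS had an adjusted p of 0.0581. Id2, a relative of Id1 and Id3, differed by 0.68 ± 0.23 between pre-treated and doxorubicin hearts (adjusted p = 0.392). Heyl, a relative of Hey1, averaged 6.16 ± 0.42 in pre-treated hearts, 6.79 ± 0.25 in doxorubicin hearts and 6.98 ± 0.55 in PBS hearts.

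Of the targets of the TGF-beta and activin branch, 19 of 26 were tested, and 2 passed the test. Cdkn1a, which encodes the cell cycle inhibitor p21 and is also a p53 target, rose in both doxorubicin-treated groups. It averaged 10.67 ± 0.65 in pre-treated hearts and 10.46 ± 0.50 in doxorubicin hearts, against 7.97 ± 0.60 in PBS hearts. The differences from PBS were 2.70 ± 0.36 with pre-treatment and 2.50 ± 0.31 without it (limma, adjusted p = 0.00467 and 0.00945). Itgb6, an integrin subunit that activates latent TGF-beta, fell in pre-treated hearts to 8.18 ± 0.34, against 9.78 ± 0.30 in PBS hearts, a difference of -1.61 ± 0.29 (adjusted p = 0.0254). Doxorubicin hearts stood between them at 8.82 ± 0.59. Classic targets such as Col1a1 and Junb were not called. In pre-treated against doxorubicin hearts they differed by 0.50 ± 0.18 and 0.59 ± 0.24 (limma, adjusted p = 0.397 and 0.421). In that comparison 7 of the 19 targets were above 0 and 12 below. Pmepa1 and Skil, given above as regulators, are also in this list, with Pmepa1 at -0.56 and Skil at -0.15.

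NOTCH genes around Hey1 had 11 tested of 15, and none was called. Doxorubicin against PBS hearts gave 10 of 11 below 0, with a median of -0.19, beside 0.00 over all probes. Hes1, a NOTCH-induced repressor like Hey1, averaged 8.50 ± 0.30 in pre-treated hearts, 8.61 ± 0.22 in doxorubicin hearts and 9.07 ± 0.15 in PBS hearts. Its difference from PBS was -0.46 ± 0.14 with doxorubicin alone (adjusted p = 0.198) and -0.57 ± 0.16 with pre-treatment (adjusted p = 0.0978). Dll4, the endothelial NOTCH ligand, differed from PBS by -0.38 ± 0.18 with doxorubicin alone and -0.59 ± 0.20 with pre-treatment. A list of helix-loop-helix partners of ID proteins, which also held the ID genes Id2 and Id4, had 4 tested of 6, with none called. Id2, given above among BMP targets, was among those tested. Tcf12 differed from PBS by -0.45 ± 0.13 in pre-treated hearts and -0.32 ± 0.11 in doxorubicin hearts.

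Receptors had 10 tested of 13 and ligands and their binders 10 of 23, with none called. Bmpr2, the type 2 receptor for BMPs, averaged 10.71 ± 0.04 in pre-treated hearts, 11.00 ± 0.12 in doxorubicin hearts and 11.03 ± 0.07 in PBS hearts. Its difference from PBS in pre-treated hearts was -0.31 ± 0.10 (adjusted p = 0.136). The receptor sAcvR2B-Fc is made from, Acvr2b, averaged 8.37 ± 0.12 in pre-treated hearts, 8.25 ± 0.16 in doxorubicin hearts and 8.44 ± 0.11 in PBS hearts. Bmp4, a BMP ligand, differed by -0.37 ± 0.15 between pre-treated and doxorubicin hearts (adjusted p = 0.422).

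**Figure D4:**
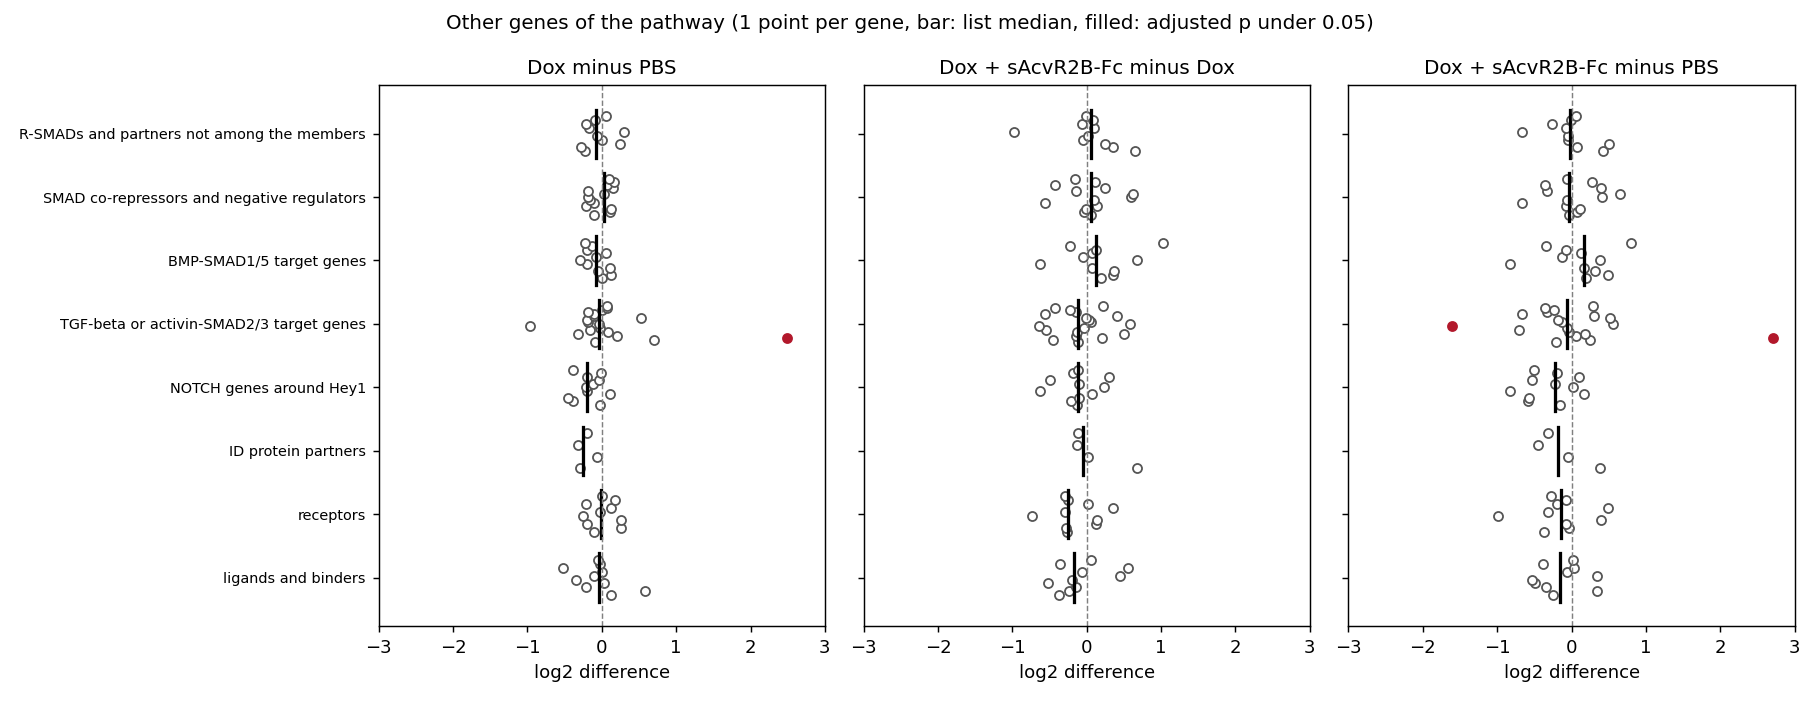
Log2 difference (horizontal axis) of each tested gene (points) in the pathway lists (rows) for the 3 comparisons, with the list median as a bar and genes past an adjusted p under 0.05 filled. The filled points are Cdkn1a, at 2.50 and 2.70, and Itgb6, at -1.61.

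Summed marker signals of other cell types were set beside the member values. The blood vessel endothelium list, the cells where Id1, Id3 and Hey1 are best known as targets, had 12 of 13 genes tested and none called. Its summed normalized signal was 19408 to 20406 in pre-treated hearts, 19730 to 23255 in doxorubicin hearts and 20115 to 23088 in PBS hearts. Kdr was the untested marker. Lymphatic endothelium summed to 1508 to 1614 in pre-treated hearts, 2354 to 2534 in doxorubicin hearts and 2017 to 2539 in PBS hearts, with 1 of 6 markers, Ccl21a, called lower against both. Ccl21a averaged 6.89 on the log2 scale in pre-treated hearts, 9.73 in doxorubicin hearts and 9.90 in PBS hearts. Of the 6 markers, 3 differed upward and 3 downward against PBS hearts, and 1 upward and 5 downward against doxorubicin hearts. Macrophage markers, 8 of 9 tested (Cd68 was not), summed to 4255 to 7807 in pre-treated hearts, 3789 to 5049 in doxorubicin hearts and 3080 to 4940 in PBS hearts, with Vsig4 called higher against both. Neutrophil markers, 5 of 6 tested (Cxcr2 was not), summed to 468 to 509 in pre-treated hearts, 367 to 891 in doxorubicin hearts and 132 to 207 in PBS hearts, with S100a8 and S100a9 called in each against PBS. Erythroid markers, 4 of 7 tested and none called, summed to 13162 to 23859 in pre-treated hearts, 15318 to 37043 in doxorubicin hearts and 28266 to 38758 in PBS hearts. The 2 of 5 atrial markers tested were Nppa and Myl4, with none called. They summed to 6310 to 8371 in pre-treated hearts, 8641 to 19697 in doxorubicin hearts and 9656 to 12662 in PBS hearts. The 1 adipocyte marker tested of 7 was Cidea, which was not called. It gave 707 to 822 in pre-treated hearts, 517 to 661 in doxorubicin hearts and 526 to 620 in PBS hearts. Of the fibroblast (6 of 7 tested), smooth muscle and pericyte (8 of 9 tested) and lymphocyte (1 of 8 tested) markers, none was called in any comparison. The part of these cells in the member values was not tested.

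Each gene was read here by its probe with the highest mean, ILMN_2671572 for Smad1 and ILMN_2772582 for Smad3. The gene whose signal over the 13 arrays was most like that of each member was found among 10116 named genes, as a description without a test. For Smad1 it was Ywhaz (r = 0.969), then Vsir (r = 0.952) and Abi1 (r = 0.950). Vsir differed by -1.19 between pre-treated and doxorubicin hearts, and Ywhaz by -0.41. For Id1 the nearest was Kat7 (r = 0.898), then Pparg (r = 0.891) and Cdc42ep4 (r = 0.854). Cdc42ep4 differed from PBS by 0.85 in pre-treated hearts (adjusted p = 0.0528). Hey1 was nearest to Gprc5b (r = 0.934), Zfp46 (r = 0.912) and Manba (r = 0.909). Id3 was nearest to Sh2b1 (r = 0.897), Smad2 to Dhx57 (r = 0.903) and Smad3 to Fcmr (r = 0.939). All points of such a correlation share the arrays and their normalization.

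Whether members varied together between mice of 1 group was asked with group means removed, over 13 arrays and 15 pairs of genes, by permuting arrays within groups. The probes were again ILMN_2671572 for Smad1 and ILMN_2772582 for Smad3. The 2 arrays left out as farthest from the median were picked by the first gene named in each pair. Arrays standing apart in the second gene alone were kept. None of the 15 pairs passed after Benjamini-Hochberg adjustment, while 4 had an unadjusted p under 0.05 by Pearson's r. Smad1 and Smad2 had one by Spearman's rho alone, with rho = -0.68 (permutation p = 0.0298, adjusted p = 0.197) and r = -0.60 (permutation p = 0.0581, adjusted p = 0.159), or r = -0.59 without the 2 arrays farthest from the median. Id3 and Hey1 gave Pearson's r = -0.65 (permutation p = 0.0165, adjusted p = 0.124) and Spearman's rho = -0.69 (permutation p = 0.0217, adjusted p = 0.197). Without the 2 arrays farthest from the median, r was -0.54. Id1 and Hey1 gave r = 0.63 (permutation p = 0.0218, adjusted p = 0.124) and rho = 0.54 (permutation p = 0.0655, adjusted p = 0.197), with r = 0.50 without the 2 farthest arrays. Smad2 and Id3 gave r = -0.74 (permutation p = 0.0331, adjusted p = 0.124) and rho = -0.67 (permutation p = 0.0492, adjusted p = 0.197), with r = -0.67 without the 2 farthest. Smad2 and Smad3 gave r = 0.55 (permutation p = 0.0315, adjusted p = 0.124) and rho = 0.54 (permutation p = 0.0569, adjusted p = 0.197), with r = 0.58 without them. Id1 and Id3, the pair of relatives, gave r = -0.35 (permutation p = 0.198, adjusted p = 0.358).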

How the data were processed

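Heart RNA of 13 mice was measured on 1 array each. The authors deposited 1 linear signal intensity and 1 detection p-value per probe and array, per the file headers, with no scaling between arrays. The authors' deposited series matrix holds intensity values they had processed further, on a linear scale with column medians of 6.8 to 6.9. No source at hand names the software.

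Intensities were background-corrected with normexp from detection p-values, quantile-normalized and put on the log2 scale by the neqc function of limma 3.58.1 under R 4.3.3, with an offset of 16. Probes with a detection p under 0.05 on at least 3 arrays were tested. Probes were named by the platform annotation and their symbols brought up to date by gene identifier, of which 99.78% were in the GRCm38.p6 gene table, and 34885 of 45281 probes had 1 symbol, 18 several and 10378 none. All 3 groups entered 1 limma fit (lmFit, eBayes, two-sided), adjusted by Benjamini-Hochberg over all tested probes. Pair correlations used 100000 permutations (numpy 2.4.6). Every tested member probe was named, as were list genes that were called and otherwise up to 3 per list and comparison with the smallest p. Members and lists were chosen with earlier results of these data known. Each series matrix column matched 1 array (rho of at least 0.99999), the next best reaching 0.904. Labels give replicate numbers but no pairing, and no 2 arrays held identical values. In the group comparisons each tested member probe is reported, also where probes disagree. Most-like genes, pair correlations, pathway lists and marker sums used the probe with the highest mean of each gene. Alternatives covered detection filter, scaling, background, variance model, array names, replicate block and each array left out. The number of arrays limits the precision. The fit was also run on simulated data with independent normal noise and no array effects. That run cannot speak to the array names or to effects of single arrays.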

Additional observations from a re-analysis of the deposited data

Results flagged for a closer look

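Hey1 gave both results of this kind among 20 groups of 5 arrays looked at for 1 array standing apart. Doxorubicin replicate 4 read 8.62, below the other 4 doxorubicin hearts at 9.13 to 9.33. Its gap to the nearest heart was 0.727 of the group's range. PBS replicate 1 read 9.00, below the other PBS hearts at 9.38 to 9.50, with a gap of 0.767 of the range. A test at this level marks about 5% of groups by chance.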

How the results depend on the processing

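Over the 30 member results (10 probes in 3 comparisons) and 735 alternative values, 704 kept direction and side of the threshold, 14 lost a call, 13 gained one, and 4 turned with an unadjusted p under 0.05 in either fit. Another 50 sign changes were between values short of that in both fits. The 14 lost calls are all of Smad1 ILMN_1240219 in pre-treated against PBS hearts, among them those without background correction (-0.20, adjusted p = 0.0761), with a variance trend (adjusted p = 0.0632) and with the replicate block (-0.56, adjusted p = 0.0666). Against doxorubicin hearts the same probe passed without the detection filter (adjusted p = 0.0392) and with detection on every array of a group (adjusted p = 0.0482). Smad3 ILMN_2938893 turned under the series matrix names (0.38 against doxorubicin, 0.24 against PBS) and values (0.41 and 0.25). Id1 passed against PBS without background correction (adjusted p = 0.0468). The labels do not say whether replicate numbers pair mice, and deviations of same-numbered arrays correlated at -0.27 to 0.39, which does not settle it. With the replicate block, Smad1 ILMN_2671572 passed against doxorubicin (adjusted p = 0.0197) and PBS (adjusted p = 0.0179), and ILMN_2953700 against PBS (-0.87, adjusted p = 0.0359). Called probes in doxorubicin against PBS (34) numbered 9 without the filter, 52 without background correction, 63 with an offset of 50, 56 with a variance trend, 4 with the replicate block, 0 under the series matrix names, 0 on its values, 0 over the arrays placed alike, and 2 to 387 leaving out 1 array. In pre-treated against doxorubicin (12) they numbered 7 with only these groups, 21 with the replicate block, 0, 0 and 0 under the same array-name settings, and 9 to 13 leaving out 1 array. In pre-treated against PBS (126) they numbered 216 with detection on every array of a group, 339 without background correction, 281 with an offset of 50, 253 with a variance trend, 213 with the replicate block, 0, 0 and 6 under the array-name settings, and 14 to 353 leaving out 1 array. The highest counts came without doxorubicin replicate 2 (387 and 353), the lowest without doxorubicin replicate 1 (2) and without pre-treated replicate 2 (14). In doxorubicin against PBS every array left out, except pre-treated replicates 2 and 3, moved the count by over 1.5 times, and in pre-treated against PBS every one except PBS replicate 5 and doxorubicin replicates 3 and 5. Pairs of members passing adjustment numbered 0, and 2 under the series matrix names and 2 on its values. The causes were not tested.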
